A study of Mus musculus with 3 samples.

Results

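The 5 genes followed here belong to the tendon and joint lineages and were measured in the stromal cells of day 5 masses: *Scx*, *Mkx*, *Tnmd*, *Gdf5* and *Gdf6*. They were chosen by name, as 5 of the 31053 genes in the count files, and each was found once. The masses came from female CD-1 mice of 6 to 8 weeks with subdermal implants of Matrigel, a basement membrane gel. The Matrigel-only mice received the gel without rhBMP2, without drug and without drug vehicle. In the Vehicle mice the gel carried rhBMP2, recombinant BMP2 of the kind used to start ectopic skeletal tissue, and the mice were given daily corn oil with DMSO by mouth. The Palo mice received the same rhBMP2 gel and 4 mg/kg of palovarotene, an agonist of the retinoic acid receptor gamma. Matrigel-only therefore differs from Vehicle both in rhBMP2 and in the gavage, which cannot be told apart here. Each condition was 1 droplet library of cells released by digestion from several pooled masses, so that differences between conditions have no replicates behind them and were not tested. All intervals below are 95% intervals of counting error, and nothing in them covers the spread between masses or mice. For levels and ratios they treat UMIs as independent, so they are too narrow where UMIs are clumped in few cells.

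Tendon and joint share a beginning in loose mesenchyme that neighbours cartilage. Scleraxis (*Scx*) and Mohawk (*Mkx*) are transcription factors of tendon and ligament cells, of the basic helix-loop-helix and homeobox families, and tenomodulin (*Tnmd*) is a membrane protein of maturing tendon cells. *Gdf5* and *Gdf6* encode secreted ligands of the BMP family that mark the interzone, the band of cells from which joints form, and act through type I receptors such as *Bmpr1b* and SMAD proteins. *Scx* and *Sox9*, the transcription factor of chondrocytes, are known to occur together in progenitors of the tendon to bone junction, and *Acan* encodes aggrecan, the main proteoglycan of cartilage.

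Of the cells that passed the limits on quality, 2085 of 8728 in Matrigel-only, 1373 of 5478 in Vehicle and 1184 of 7297 in Palo were stromal, by at least 1% of their UMIs (unique molecular identifiers, 1 for each captured transcript) from *Col1a1*, *Col1a2*, *Col3a1*, *Dcn* and *Lum* together. All 8 other fibroblast genes checked, among them *Pdgfra* and *Prrx1*, reached at least 1 CPM in each library, and their summed level was 5995 to 8171 CPM in these cells against 42.4 to 82.5 CPM in cells with macrophage markers. CPM are UMIs of a gene per 1000000 UMIs summed over the cells. Over the stroma, the 9 macrophage genes summed to 873, 279 and 748 CPM in Matrigel-only, Vehicle and Palo, the muscle genes to 2.99, 21.1 and 8.97 CPM, and the endothelial, mural and glial genes to 20.9, 5.93 and 14.0 CPM with *Sox10* at 0. Median depth was 9082, 17114 and 12955 UMIs per stromal cell in that order. Shares of cells with a UMI are therefore also given after each cell was thinned to 3100 UMIs, with the 207, 70 and 54 shallower cells left out. Thinned shares are expected values, and their intervals are approximate. Some 11 to 21 cell barcodes were shared by each pair of libraries, 1 of them stromal in both libraries of its pair.

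*Scx* was high in the Vehicle stroma and low in the other libraries, and *Gdf5* was found in the Vehicle stroma and had no UMI in the stroma of the others. *Mkx* was scarce and also highest in Vehicle. *Tnmd* stood at about the same level in all libraries. *Gdf6* went the other way, highest in Matrigel-only and low in both libraries from rhBMP2 gels.

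**Figure D1:**
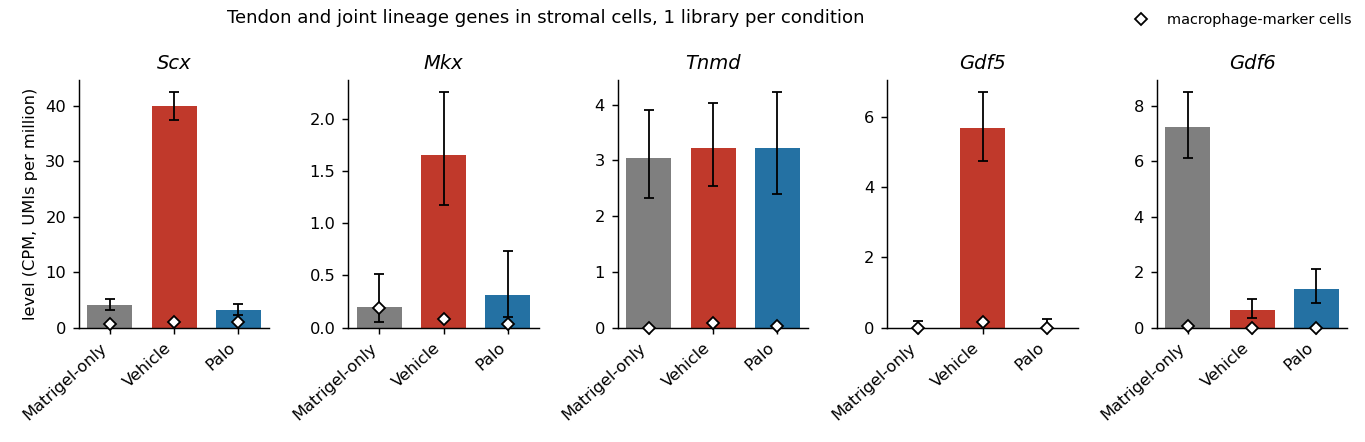
Level of each gene in the stromal cells of the 3 libraries, in CPM on a linear axis that differs between panels. Bars are single libraries with exact 95% Poisson intervals, and diamonds are the level in macrophage-marker cells of the same library. *Scx* stood at 39.9 CPM in Vehicle against 4.09 and 3.16, *Tnmd* was level and *Gdf6* was highest in Matrigel-only.

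*Scx* (ENSMUSG00000034161, chromosome 15, 76457452 to 76459458 of mm10, plus strand) gave 82 UMIs in the Matrigel-only stroma, 941 in Vehicle and 50 in Palo. Its level was 4.09 CPM (3.25 to 5.08), 39.9 CPM (37.4 to 42.5) and 3.16 CPM (2.34 to 4.16) in that order. Vehicle was far above the others, and the intervals of Matrigel-only and Palo overlapped. The ratio was 9.75 (7.78 to 12.4) for Vehicle over Matrigel-only, a log2 ratio of 3.29. Palo was 12.6-fold lower than Vehicle (9.50 to 17.1), and Palo over Matrigel-only was 0.772 (0.532 to 1.11).

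A UMI of *Scx* was seen in 46 of 2085 stromal cells (2.21%), 404 of 1373 (29.4%) and 35 of 1184 (2.96%). At the same depth the shares were 0.819% (0.463 to 1.34), 9.62% (8.07 to 11.3) and 0.842% (0.395 to 1.57). Cells with macrophage markers, which should lack the gene, had 0.178%, 0.337% and 0.304% at that depth, with median depths before thinning of 2980, 3376 and 4194 UMIs. The stroma was above this background in each library, with intervals that overlapped in Palo (0.163 to 0.519 in its macrophage-marker cells). The gene lies inside *Bop1*, which is on the opposite strand and stood at 30.4, 42.6 and 31.6 CPM.

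*Mkx* (ENSMUSG00000061013), which overlaps another annotated transcript on its own strand so that shared reads cannot be assigned, gave 4, 39 and 5 UMIs in the Matrigel-only, Vehicle and Palo stroma. Its level was 0.200 CPM (0.0544 to 0.511), 1.65 CPM (1.18 to 2.26) and 0.316 CPM (0.103 to 0.737). The Matrigel-only value was that of the macrophage-marker cells of the same library, 0.190 CPM, and is read as background. The ratio of Vehicle to this background value of Matrigel-only was 8.29 (2.99 to 31.9), with a log2 ratio of 0.36, under 2-fold, when 5 CPM were added to both, and Palo was 5.23-fold lower than Vehicle (2.06 to 17.0). With so few UMIs, Palo over Matrigel-only could lie anywhere between 0.341 and 7.98. In Vehicle the 39 UMIs were spread over 37 cells.

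*Tnmd* (ENSMUSG00000031250, chromosome X, 133850980 to 133865577, plus strand) is a known downstream gene of scleraxis. It did not follow *Scx* across the libraries. It gave 61 UMIs in 24 Matrigel-only cells, 76 in 45 Vehicle cells and 51 in 30 Palo cells, and macrophage-marker cells held at most 1 UMI per library. Its level was 3.04 CPM (2.33 to 3.91), 3.22 CPM (2.54 to 4.03) and 3.22 CPM (2.40 to 4.24). The 3 intervals overlapped, and the ratios were 1.06 (0.746 to 1.51) for Vehicle over Matrigel-only, 1.0 (0.687 to 1.44) for Palo over Vehicle and 1.06 (0.715 to 1.56) for Palo over Matrigel-only. A change within these bounds, in either direction, could not be seen at this depth.

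Because *Tnmd* is a known downstream gene of a basic helix-loop-helix factor, its promoter is shown, the 250 bases of chrX:133850758-133851007 on the plus strand of GRCm38.p6 from RefSeq, whose last 28 bases lie past the start of the gene given above. It was the only 1 of the 5 genes with a promoter in the table used.
Tnmd: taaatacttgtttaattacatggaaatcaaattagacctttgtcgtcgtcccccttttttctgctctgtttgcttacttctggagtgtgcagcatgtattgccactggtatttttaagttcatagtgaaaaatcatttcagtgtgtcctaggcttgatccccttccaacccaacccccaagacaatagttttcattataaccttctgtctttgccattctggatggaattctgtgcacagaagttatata
It held 0 matches to the E-box CANNTG, the general motif of such factors, on either strand, while 66.2% of 32851 promoters of all genes cut to the same window held at least 1. That says only that these letters are not in this window.

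*Gdf5* (ENSMUSG00000038259, chromosome 2, 155941023 to 155945367, minus strand) had 134 UMIs in the Vehicle stroma and 0 in each of the others. The Vehicle level was 5.68 CPM (4.76 to 6.73), at least 38.0-fold higher than in Matrigel-only and at least 30.0-fold higher than in Palo when a count of 0 is set to 3 UMIs per library. No ratio of Palo to Matrigel-only can be given. In Vehicle 94 of 1373 stromal cells had a UMI (6.85%, 5.57 to 8.31), and at the same depth 1.58% did (0.972 to 2.41). The 0 of 2085 Matrigel-only and 0 of 1184 Palo cells allow shares of up to 0.144% and 0.253%. Vehicle macrophage-marker cells held 2 UMIs in 3057 cells. The gene *Gm15557* that overlaps it on the opposite strand had 0 UMIs in the stroma.

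*Gdf6* (ENSMUSG00000051279, chromosome 4, 9844372 to 9862345, plus strand) gave 145, 15 and 22 UMIs in 106, 7 and 17 stromal cells of Matrigel-only, Vehicle and Palo. Its level in the same order was 7.23 CPM (6.10 to 8.51), 0.636 CPM (0.356 to 1.05) and 1.39 CPM (0.871 to 2.10). Matrigel-only lay above both of the others, whose intervals overlapped. Vehicle was 11.4-fold lower than Matrigel-only (6.67 to 20.8) and Palo was 5.20-fold lower (3.31 to 8.56). The ratio of Palo to Vehicle was 2.19 (1.08 to 4.53), but 13 of the 15 Vehicle UMIs came from 5 cells, and with the cells of highest doublet score left out the log2 ratio was 0.87 against 1.13, under 2-fold. Outside the stroma the gene had 1 UMI in the Matrigel-only macrophage-marker cells and 0 in those of the other libraries.

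Counted together, 4 of the 5 genes were at least 2-fold apart between Vehicle and Matrigel-only, where 20.6% of all genes with at least 1 CPM in 1 of the libraries were. *Scx*, *Mkx* and *Gdf5* were higher in Vehicle, as 7.42% of those genes were, and *Gdf6* was lower, as 13.1% were. Between Palo and Vehicle the same 4 genes were past 2-fold, with *Gdf6* higher (9.97% of all genes) and the others lower (7.72%), against 17.7% past 2-fold either way. The comparisons share the Vehicle library. Between Palo and Matrigel-only 1 of the 5, *Gdf6*, was past 2-fold, against 6.34% of all genes, 4.32% lower and 2.02% higher. All 5 genes had at least 1 CPM in Vehicle or Matrigel-only, but *Mkx* and *Gdf5* only through Vehicle and *Gdf6* only through Matrigel-only, and all 5 had it in Palo or Vehicle, *Mkx* and *Gdf5* only through Vehicle and *Gdf6* only through Palo. A gene that passed only through the library where it is higher has its direction fixed by the limit, so the counts for these comparisons are descriptions. Of the 5, 3 had 1 CPM in Palo or Matrigel-only, each of them in both. With 5 CPM added 2 genes were past 2-fold between Palo and Vehicle. At the limit of 5 CPM the shares of all genes were 16.4%, 13.4% and 3.37%.

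The question of whether these genes sit in cells on the way to cartilage was put to the data by their overlap with *Sox9* and *Acan*. In Vehicle 1094 of the 1373 stromal cells had a UMI of *Sox9* and 779 of *Acan*. In Matrigel-only 494 cells had *Sox9* and 1 *Acan*, and in Palo 408 had *Sox9* and 4 *Acan*. Overlap with *Acan* can therefore be described in Vehicle alone. The level of *Sox9* itself was 53.5, 461 and 57.3 CPM.

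*Gdf5* overlapped most. In Vehicle 93 of its 94 cells had a UMI of *Sox9* (98.9%) against 78.3% of the other stromal cells, and 87 had *Acan* (92.6% against 54.1%). Since a deeper cell shows more genes, the same shares were taken at 3100 UMIs, where *Sox9* was seen in 85.0% (62.4 to 96.7) of cells with a *Gdf5* UMI against 55.3% (52.6 to 58.1), and *Acan* in 92.2% (71.5 to 99.3) against 49.6% (46.8 to 52.4). *Col2a1*, the collagen of cartilage, was in 68.3% (44.4 to 86.7) of them against 24.7% (22.3 to 27.1). All 3 pairs of intervals were apart.

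The *Scx* cells overlapped with *Sox9* and *Acan* too, and less of the excess over other Vehicle stromal cells was left once depth was matched. Without thinning 368 of the 404 cells had *Sox9* (91.1% against 74.9%) and 293 had *Acan* (72.5% against 50.2%). At the same depth the *Sox9* share was 61.0% (51.8 to 69.5) against 55.3% (52.4 to 58.1), and the *Acan* share 61.0% (51.9 to 69.6) against 49.1% (46.2 to 52.0). Both pairs of intervals overlapped, the second barely, which does not exclude a difference. The level of *Acan* was 1.35-fold higher (1.32 to 1.39) in the *Scx* cells and that of *Sox9* 1.18-fold (1.14 to 1.23). *Col2a1* was in 23.0% (16.0 to 31.4) of cells with *Scx* against 25.6% (23.1 to 28.2).

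*Mkx*, *Tnmd* and *Gdf6* had too few cells for a firm share. Before thinning 35 of the 37 *Mkx* cells, 41 of the 45 *Tnmd* cells and 4 of the 7 *Gdf6* cells of Vehicle had *Sox9*, and 29, 29 and 1 had *Acan*. At the same depth the *Sox9* shares were 65.0% (23.3 to 94.2), 63.8% (32.2 to 88.5) and 13.2% (0.0000644 to 88.4), and each interval held the share of the other cells, 55.7% to 55.9%. Counted over the genes, 4 of 5 had the higher *Sox9* share at matched depth and 4 of 5 the higher *Acan* share, *Gdf6* being the exception in both. Without *Gdf6*, seen in too few thinned cells for the comparison with all genes, these were 4 of 4. Of all genes seen in at least 5 thinned cells, 46.3% had a higher *Sox9* and 47.2% a higher *Acan* share.

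**Figure D2:**
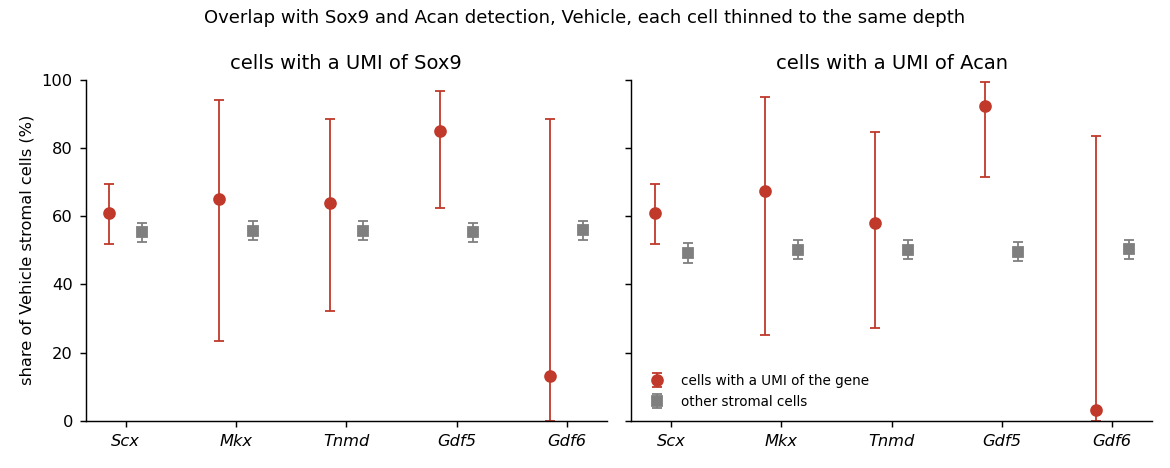
Share of Vehicle stromal cells with a UMI of *Sox9* (left) or *Acan* (right), in percent. Circles are cells with a UMI of each gene and squares the other stromal cells. The shares are those expected after thinning to 3100 UMIs, with approximate 95% binomial intervals. The intervals are apart for *Gdf5*, at 85.0% against 55.3% for *Sox9*, and overlap for the other genes.

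Outside Vehicle the overlap with *Sox9* differed from gene to gene. In Matrigel-only 16 of 24 *Tnmd* cells had a UMI of *Sox9* (66.7%, 44.7 to 84.4) against 23.2% (21.4 to 25.1) of the other stromal cells. The depth of these cells was 11978 against 9003 UMIs at the median, and after thinning the shares were 26.5% (5.56 to 60.6) against 12.2% (10.8 to 13.8), with intervals that overlapped. *Scx* stood at 41.3% against 23.3% before thinning and at 13.2% against 12.3% after it. *Gdf6* cells showed *Sox9* less, in 11 of 106 (10.4%, 5.30 to 17.8) against 24.4% (22.5 to 26.4), although they were the deeper cells, at 10087 against 8942 UMIs. After thinning the *Gdf6* shares were 3.72% (0.256 to 15.2) against 12.5% (11.0 to 14.1). At matched depth the *Sox9* share was higher with than without a UMI for 57.6% of all genes in Matrigel-only and 53.4% in Palo. In Palo the shares before thinning were 46.7% against 34.1% for *Tnmd*, 40.0% against 34.3% for *Scx* and 23.5% against 34.6% for *Gdf6*, all with overlapping intervals.

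The *Gdf6* cells of the Matrigel-only stroma were instead cells with *Pi16*, a marker of adventitial fibroblasts. A *Pi16* UMI was in 97 of 106 (91.5%, 84.5 to 96.0) against 53.4% (51.1 to 55.6), and at matched depth in 87.1% (72.6 to 95.6) against 44.8% (42.5 to 47.1). All 7 *Gdf6* cells of Vehicle and 10 of the 17 in Palo had *Pi16* too, against 11.7% and 30.7% of the other stromal cells. No stromal cell of any library had a UMI of both *Gdf6* and *Scx*. In Matrigel-only that was 0 of 106 *Gdf6* cells, with an interval up to 3.42%, against 2.32% of the others, so that a difference was not detectable at this depth.

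The stromal cells were next split by what else was counted in them, to see whether the differences between libraries were also present within one kind of cell. The classes were cells with *Acan* and *Col2a1*, with *Acan* but no *Col2a1*, with *Sox9* but no *Acan*, with *Pi16* but neither *Sox9* nor *Acan*, and with none of *Sox9*, *Acan* and *Pi16*. Vehicle held 407, 372, 391, 80 and 123 such cells. Matrigel-only held 493, 1012 and 579 and Palo 405, 312 and 463 of the last 3 classes. The last 3 classes were not split by *Col2a1*. In Vehicle 499 stromal cells had *Col2a1*, 407 of them with *Acan*, and the others lay in those 3 classes. The classes rest on detection and so move with depth.

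*Scx* was present in every *Sox9* or *Acan* class of Vehicle. It stood at 35.8 CPM (31.6 to 40.4) with *Acan* and *Col2a1* and 56.4 CPM (50.8 to 62.4) with *Acan* but no *Col2a1*. With *Sox9* but no *Acan* it was at 39.5 CPM (35.0 to 44.4). Its level was highest in cells with *Acan* that had no *Col2a1*, by 1.57-fold (1.34 to 1.85) over those with both. The share of cells with a *Scx* UMI was about the same there, 37.1% against 38.1% before thinning. *Pi16* cells of Vehicle held 1 *Scx* UMI, 1.04 CPM (0.0264 to 5.81). Within the class with *Sox9* and no *Acan*, Vehicle was 6.54-fold higher than Matrigel-only (4.60 to 9.59) and Palo 12.1-fold lower than Vehicle (7.67 to 20.1). In cells with none of *Sox9*, *Acan* and *Pi16* Vehicle over Matrigel-only was 2.17 (1.26 to 3.66). Palo over Matrigel-only was 0.542 (0.296 to 0.965) in the first of these classes and 0.558 (0.326 to 0.936) in the second. Both intervals were below 1, while over all stroma it held 1. The shares of cells with a *Scx* UMI, before thinning, were closer. They were 3.46% in Palo against 3.85% in Matrigel-only in the first class and 3.67% against 4.15% in the second. The higher level in Vehicle was therefore also found among cells without *Acan*, where *Sox9* was itself higher, at 286 CPM against 185 in Matrigel-only and 148 in Palo.

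*Gdf5* followed the cartilage genes inside Vehicle. It stood at 14.2 CPM (11.6 to 17.2) in cells with *Acan* and *Col2a1* and 3.34 CPM (2.09 to 5.06) with *Acan* but no *Col2a1*. With *Sox9* but no *Acan* it was at 1.12 CPM (0.484 to 2.21). The 80 and 123 cells of the remaining classes had 0 UMIs, with intervals up to 3.85 and 2.35 CPM. These do not place them below the *Sox9* class. The first class exceeded the third 12.6-fold (6.18 to 30.1). Within the third, on 8 UMIs against 0, Vehicle was at least 2.17-fold above Matrigel-only and at least 2.28-fold above Palo. Most *Gdf5* UMIs lay in the *Acan* classes, which were almost empty in those libraries, so larger bounds could not be given within a shared class. *Mkx* had the same order, 2.72, 1.67 and 1.12 CPM and then 0, with intervals that overlapped throughout. Its ratio of the first class to the third was 2.43 (1.03 to 6.38), on 20 and 8 UMIs.

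*Tnmd* was even across the *Sox9* and *Acan* classes of Vehicle, between 2.89 and 3.78 CPM. In Matrigel-only it was concentrated in the *Sox9* class, at 8.10 CPM (5.96 to 10.8) against 0.121 CPM in *Pi16* cells, where it had 1 UMI. In cells with none of *Sox9*, *Acan* and *Pi16* it was at 2.19 CPM (1.16 to 3.74). Within the *Sox9* class it was thus 2.14-fold lower in Vehicle than in Matrigel-only (1.31 to 3.58), although the level over all stroma was the same in both. The ratio rests on 27 UMIs in 13 Vehicle cells (3.32% of the class) and 47 in 16 Matrigel-only cells (3.25%). The Palo value in this class was 4.90 CPM (3.31 to 7.0).

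*Gdf6* was concentrated in the *Pi16* class of Matrigel-only, at 14.8 CPM (12.3 to 17.7) against 2.59 CPM (1.45 to 4.27) in the *Sox9* class. Within the *Pi16* class Palo was 5.41-fold lower than Matrigel-only (2.76 to 12.1) and Vehicle 7.11-fold lower, on 2 UMIs and with an interval of 1.93 to 59.4. *Pi16* cells were 48.5%, 5.83% and 26.4% of the Matrigel-only, Vehicle and Palo stroma, and the adventitial markers together summed to 4292, 521 and 2204 CPM. The part of this shift in the level over all stroma was not tested beyond the values within the class.

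**Figure D3:**
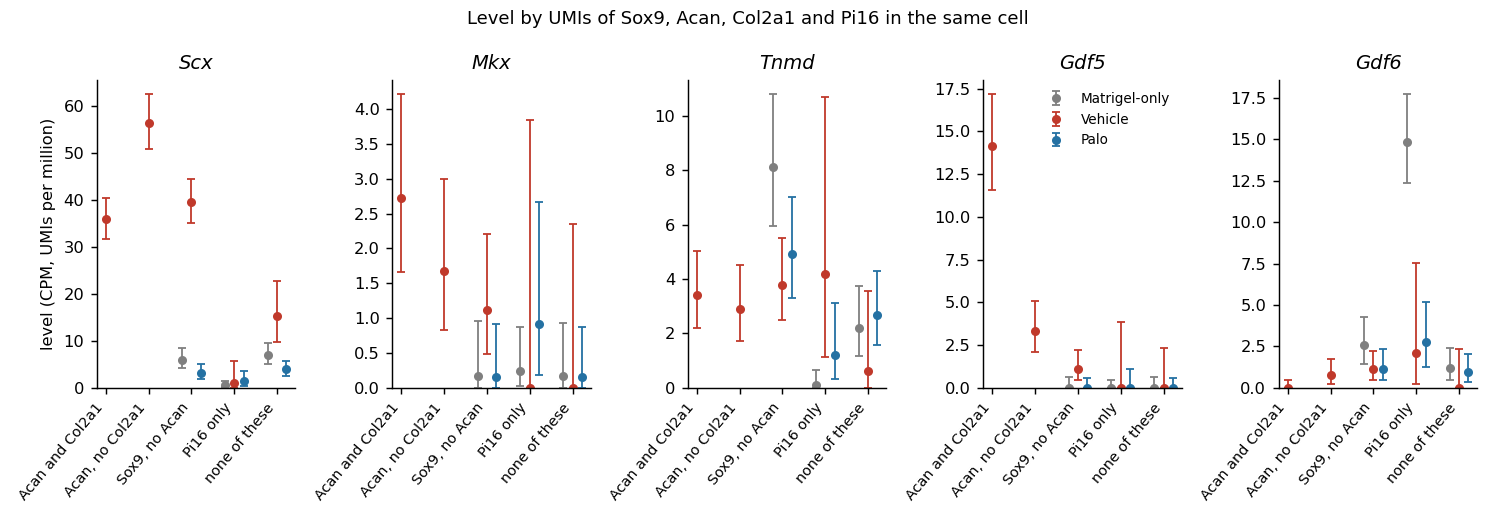
Level of each gene in CPM, on linear axes that differ between panels, in stromal cells split by UMIs of *Acan*, *Col2a1*, *Sox9* and *Pi16*. Cells of the last class had none of *Sox9*, *Acan* and *Pi16*. Points are single libraries with exact 95% Poisson intervals, for classes of at least 20 cells, so the *Acan* classes show Vehicle only. *Scx* was higher in Vehicle also in cells without *Acan*, and *Gdf6* was highest in *Pi16* cells of Matrigel-only, at 14.8 CPM.

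Cells with a UMI of *Scx* were then set against the other stromal cells of their library for 20 further tendon genes, a description of the cells in which the gene was caught. In Matrigel-only 7 of the 13 tendon genes measured were at least 2-fold higher in the 46 *Scx* cells, against 3.44% of all genes. *Fmod*, fibromodulin, was 14.6-fold higher (12.7 to 16.8), *Thbs4*, a tendon matrix thrombospondin, 8.14-fold (7.34 to 9.02), the matrix protein gene *Tnc* 7.68-fold (7.37 to 7.99) and *Col12a1* 4.65-fold (4.40 to 4.91). In Palo 6 of 12 were higher in the 35 *Scx* cells, against 3.26% of all genes, with *Thbs4* at 9.25-fold (8.30 to 10.3) and *Fmod* at 6.35-fold (5.51 to 7.29). *Tppp3*, a marker of the tendon sheath, was lower in the *Scx* cells of every library, 3.11-fold in Matrigel-only, 2.69-fold in Vehicle and 5.26-fold in Palo.

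The Vehicle stroma had 9.75-fold more *Scx* than that of Matrigel-only. In its 404 *Scx* cells 0 of 14 tendon genes were at least 2-fold higher, which is near the 0.895% of all genes. Another 3 were lower, against 4.32%, and the median log2 ratio was -0.02 against -0.05 for all genes. *Fmod* stood at 1994 CPM with and 1394 CPM without *Scx*, a ratio of 1.43 (1.40 to 1.46), and *Tnc* at 2303 and 2206 CPM. *Col12a1* was 1.43-fold higher (1.40 to 1.46), *Aspn* 1.25-fold (1.22 to 1.28) and *Fibin* 1.22-fold (1.17 to 1.27). The 3 lower genes were *Thbs4*, at 5.84 against 11.8 CPM, *Tppp3*, at 27.1 against 72.9 CPM, and *Egr2*, at 2.48 against 5.86 CPM. *Fmod* and *Tnc* were thus high in Vehicle stroma whether or not *Scx* was seen, while in Matrigel-only *Fmod* stood at 453 CPM with and 31.0 CPM without it. These contrasts were not tested between libraries. A cell without a UMI can still express the gene, the share of cells with one was 2.21%, 29.4% and 2.96% in the libraries, and its part in the contrasts was not tested.

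Some tendon genes were also higher in the *Tnmd* cells of Matrigel-only, where 4 of 12 were at least 2-fold higher, against 4.33% of all genes, *Thbs4* by 7.73-fold (6.73 to 8.85), *Fmod* by 5.39-fold (4.18 to 6.87) and *Col12a1* by 3.92-fold (3.62 to 4.25). In Palo 1 of 12 was, *Fmod* by 2.87-fold (2.31 to 3.54), against 2.11% of all genes, and *Tppp3* was 6.02-fold lower (3.59 to 11.0). The *Tnmd* cells of Vehicle had 2 of 13 tendon genes higher, *Thbs4* and *Comp*, and 6 of 14 cartilage genes, against 1.66% of all genes, among them *Matn3* at 4.52-fold (3.73 to 5.44), *Cnmd* at 4.01-fold (3.30 to 4.83) and *Hapln1* at 3.49-fold (3.12 to 3.90). *Cnmd*, chondromodulin, is the cartilage relative of tenomodulin. *Thbs4*, and *Matn1* among the 6 cartilage genes, reached 10 UMIs in these cells only by the count, so that the limit fixed their direction. Of the joint genes measured in *Tnmd* cells, 3 of 8 were at least 2-fold higher and 4 lower in Matrigel-only, where 4.33% of all genes were higher. Among the 3, *Prg4* and *Lgr5* reached 10 UMIs only by the count. *Barx2*, among the 4, reached them only by the expectation, so that the limit fixed the directions of these genes. In Vehicle 1 of 10 was higher and 0 lower, and in Palo 1 of 7 was higher and 3 lower, where 1.66% and 2.11% of all genes were higher. The higher gene was *Lgr5* in both. *Lgr5*, a marker of joint interzone cells, was higher in *Tnmd* cells of every library. Its ratio was 11.3 (6.98 to 17.5) in Matrigel-only, 2.16 (1.09 to 3.89) in Vehicle and 3.52 (2.04 to 5.72) in Palo. *Lgr5* was also 5.44-fold higher (3.39 to 8.38) in the *Scx* cells of Matrigel-only. The same cell had both *Tnmd* and *Scx* in 3, 10 and 5 cases, or 12.5%, 22.2% and 16.7% of the *Tnmd* cells of Matrigel-only, Vehicle and Palo. Among other cells *Scx* was in 2.09%, 29.7% and 2.60%. At matched depth these shares were 5.45% (0.0143 to 36.9) against 0.793%, 5.17% (0.0169 to 34.5) against 9.66% and 4.83% (0.00464 to 37.1) against 0.805%, and each interval held the share of the other cells.

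**Figure D4:**
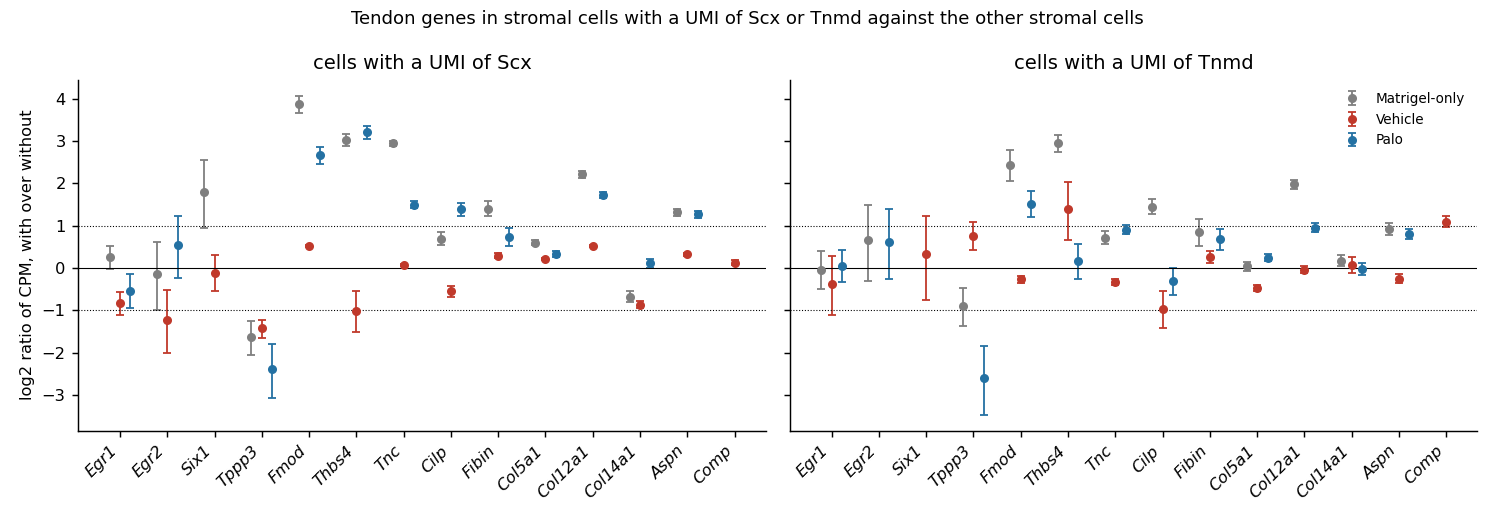
Log2 ratio of the CPM of tendon genes in stromal cells with a UMI of *Scx* (left) or *Tnmd* (right) over the other stromal cells of the same library, with conditional binomial 95% intervals. Dotted lines mark 2-fold, and a gene with fewer than 4 UMIs on either side is not drawn. *Fmod*, *Thbs4* and *Tnc* were higher in the *Scx* cells of Matrigel-only and Palo. In those of Vehicle *Thbs4* and *Tppp3* were lower, and *Fmod* and *Tnc* were within 2-fold.

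The *Gdf5* cells of Vehicle carried cartilage genes. Of 13 measured, 11 were at least 2-fold higher than in the other stromal cells, against 2.48% of all genes, with *Hapln1*, the link protein of cartilage, at 5.01-fold (4.63 to 5.42), *Col2a1* at 4.74-fold (4.63 to 4.84) and *Acan* at 2.67-fold (2.60 to 2.75). Among 11 genes of the joint 1 was higher and 6 were lower, against 5.98% of all genes lower. *Prg4*, lubricin of the joint surface, stood at 19.9 CPM with *Gdf5* against 87.1 CPM without it, and *Osr1* at 1.08 against 16.3 CPM. The higher gene was *Trps1*, a zinc finger factor, at 197 against 92.9 CPM.

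*Mkx* cells of Vehicle had more cartilage than tendon genes higher. Of 14 cartilage genes 5 were at least 2-fold higher in the 37 *Mkx* cells than in the other stromal cells, against 1.36% of all genes, and 0 of 12 tendon genes were. *Cnmd* was 2.90-fold higher (2.29 to 3.62) and *Sox6*, a partner of *Sox9*, 2.21-fold higher (1.66 to 2.89). *Matn1*, matrilin 1 of cartilage, stood at 13.2 CPM against 0.482 CPM, on 10 of the 21 UMIs in the Vehicle stroma. It was 1 of the 5 and reached 10 UMIs only by the count, so that the limit fixed its direction.

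*Gdf6* cells of Matrigel-only had fewer UMIs of several tendon genes. Of 12 measured 1 was at least 2-fold higher, against 1.95% of all genes, and 4 were lower, against 4.62%. *Thbs4* stood at 14.7 CPM with *Gdf6* against 114 CPM without it and *Tnc* at 181 against 746 CPM, while *Cilp*, a matrix protein of cartilage and tendon, was higher at 763 against 300.1 CPM. The endothelial, mural and glial markers summed to 43.3 CPM with *Gdf6* against 19.6 CPM without it, with 48 of the 50 UMIs from *Kdr*, and *Pecam1* and *Cdh5*, which define endothelial cells, had 0.

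Across single cells the genes most like *Scx* in Vehicle, by Pearson's r of log values per 10000 UMIs over 1373 cells, were not cartilage genes. They were *Tagln* (r = 0.31), *Myl9* (0.30), *Acta2* (0.30), *Col12a1* (0.29) and *Cd59a* (0.29), of which the first 3 encode parts of the contractile apparatus. *Sox9* was at 0.08 and *Acan* at 0.12, ranks 551 and 212 among 10794 genes. *Tagln* was at 504 CPM in cells with *Scx* against 196 CPM in the others of Vehicle, at 1123 against 94.6 CPM in Matrigel-only and at 1615 against 280 CPM in Palo. The endothelial, mural and glial markers together had 10, 35 and 3 UMIs in the *Scx* cells of Matrigel-only, Vehicle and Palo, of which *Rgs5* and *Myh11*, markers of mural cells, had 2 and 1, 1 and 6, and 0 and 0. *Gdf5* was most like *Xylt1* (0.28), *Col2a1* (0.27), *Frzb* (0.27), *Cd24a* (0.27) and *Slc26a2* (0.26), and *Sox9* and *Acan* were at 0.20 and 0.23. *Gdf6*, over 2085 Matrigel-only cells, was most like *Lmo2* (0.21), *Eln* (0.21), *Pgr* (0.19), *Car12* (0.19) and *Angptl1* (0.19). All of these correlations are weak, come from cells of 1 library that differ in depth, and are descriptions. *Mkx* and *Tnmd* had under 100 UMIs in each library and were not ranked.

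Other genes of the same lineages differed between the libraries in both directions. Of 14 tendon genes with at least 5 CPM, 5 were at least 2-fold higher in Vehicle than in Matrigel-only and 6 lower, where 5.52% and 10.8% of all genes were, with a median log2 ratio of 0.26 against -0.04 for all genes. *Comp* stood at 0.499, 320 and 0 CPM in Matrigel-only, Vehicle and Palo, and *Fmod* at 45.2, 1599 and 84.1 CPM. *Tnc* followed at 713, 2240 and 891 CPM. In the other direction went *Thbs4*, at 108, 9.79 and 113 CPM, and the growth response factors *Egr1*, at 140, 28.2 and 138 CPM, and *Egr2*, at 24.3, 4.71 and 22.4 CPM, which are known to act in tendon but also in many other settings. Between Palo and Vehicle 6 of 14 were higher and 3 lower (7.63% and 5.78% of all genes), and between Palo and Matrigel-only 0 of 13 were past 2-fold (0.793% of all genes higher and 2.58% lower). *Comp* reached 5 CPM only in Vehicle and *Egr2* in each library but Vehicle. The limit therefore fixed their direction in both comparisons with Vehicle.

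Genes of the joint were split in the same way, with 4 of 12 higher and 4 lower in Vehicle than in Matrigel-only (5.52% and 10.8% of all genes) and a median log2 ratio of -0.75. *Foxc1* stood at 1.85, 28.7 and 2.46 CPM, *Trps1* at 18.3, 101 and 17.2 CPM and *Prg4* at 26.5, 81.9 and 24.5 CPM in Matrigel-only, Vehicle and Palo. *Enpp2*, autotaxin, stood at 5.49 CPM in Matrigel-only and 17.5 CPM in Vehicle. *Osr1* (103, 15.1 and 103 CPM), *Osr2* (101, 16.1 and 77.0 CPM) and *Creb5* (336, 62.6 and 223 CPM), transcription factors of the joint and of loose connective tissue, were lower in Vehicle. Palo was higher than Vehicle for 7 of 12 and lower for 4 (7.63% and 5.78% of all genes), and 0 of 11 were past 2-fold against Matrigel-only, where 3.37% of all genes were. *Foxc1* reached 5 CPM only in Vehicle, so that the limit fixed its direction in both comparisons with Vehicle. The same held for *Wnt16* between Palo and Vehicle, at 15.3 and 4.87 CPM.

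Of the genes through which GDF5 and GDF6 act, relatives, receptors, antagonists and SMAD genes, 8 of the 10 with at least 5 CPM were within 2-fold between Vehicle and Matrigel-only. The 2 past it are close to the 16.4% of all genes. *Acvr1*, a type I receptor of BMPs, was 2.44-fold higher in Vehicle (2.24 to 2.65), and the antagonist chordin, *Chrd*, stood at 19.2, 3.48 and 17.1 CPM. *Grem1*, the antagonist gremlin, was highest in Palo, at 64.6 CPM against 28.0 in Matrigel-only and 20.6 in Vehicle, and was the 1 gene of 11 past 2-fold between Palo and Matrigel-only (3.37% of all genes). Between Palo and Vehicle 2 of 11 were higher and 1 lower (7.63% and 5.78% of all genes). *Chrd* was under 5 CPM in Vehicle, so that the limit fixed its direction in both comparisons with Vehicle. *Bmpr1b*, the receptor that GDF5 prefers, was low, at 3.99, 2.92 and 5.12 CPM, *Nog* at 0.599, 1.23 and 0 CPM, and *Gdf7*, the close relative of both ligands, had 0 UMIs in the stroma of each library.

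All 13 cartilage genes with at least 5 CPM were at least 2-fold higher in Vehicle than in Matrigel-only and all 13 were lower in Palo than in Vehicle, where 5.52% and 5.78% of all genes were. Of the 13, 10 reached 5 CPM only through Vehicle, so that the limit fixed their direction, and *Sox9*, *Sox5* and *Col11a1* reached it in every library. *Col2a1* stood at 1586 CPM in Vehicle, with 1 UMI in Matrigel-only and 0 in Palo, *Col9a1* at 231 CPM and *Hapln1* at 129 CPM. Of the 3 with at least 5 CPM in Palo or Matrigel-only 1 was past 2-fold, *Col11a1*, at 61.8 CPM in Palo against 19.9 in Matrigel-only.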

How the data were processed

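The authors ran Cell Ranger 3.0.2 against mm10 and deposited raw UMI counts for each barcode and gene of 3 libraries. Barcodes with under 200 or over 6000 genes or over 5% mitochondrial UMIs were left out, by the study's limits. Counts were summed over stromal cells and divided by all their UMIs. CPM carry exact Poisson, shares exact binomial and ratios conditional binomial 95% intervals, and a count of 0 was set to 3 UMIs for bounds. Shares were thinned by the hypergeometric formula, which gives expected numbers of cells, so the binomial intervals of thinned shares are approximate. Doublets were kept, and in an alternative the highest Scrublet scores at 0.8% per 1000 cells (609, 240 and 426 cells) were left out. Macrophage-marker cells had at least 0.5% of UMIs from 9 genes and were not stromal. The genes, lists and rules were chosen with earlier results of these data known. From each list the 3 genes with the largest ratio in each direction were named, and the 5 genes most like a member. Further genes named in cells with a UMI of a member, with *Bmpr1b*, *Nog* and *Gdf7*, were picked after their values were seen. Gene positions are those of GENCODE vM21. Python 3.11.15, scipy 1.17.1, scanpy 1.11.5 (Scrublet) and edgeR 4.0.16 (scaling factors) were used, and the calculations were tested on simulated data. No replicates existed and no p-value was computed.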

Additional observations from a re-analysis of the deposited data

How the results depend on the processing

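The levels were computed under 13 alternatives and the overlap under 11, and leaving out the cell with the most UMIs of each gene was added after the values were seen. In no alternative did a log2 ratio past 2-fold change its direction. *Scx* in Vehicle over Matrigel-only ranged from 2.30 (5 CPM added) to 3.47, and was 2.95 with no upper limit on genes per cell, since 1 such Matrigel-only barcode held 14 *Scx* UMIs. *Mkx* in Vehicle over Matrigel-only ranged from 0.36 (5 CPM added) to 7.40 (macrophage-marker level subtracted). *Gdf6* in Palo over Vehicle ranged from 0.18 to 1.5. With 5 CPM added, 3 genes were past 2-fold in Vehicle over Matrigel-only, 2 in Palo over Vehicle and 0 in Palo over Matrigel-only, and with the macrophage-marker level subtracted 2 were in the latter, *Mkx* joining *Gdf6*. The overlap counts were 4 under all 11 alternatives. With a limit of 1 CPM, 6 genes of GDF signalling were past 2-fold in Palo over Vehicle and 2 of cartilage in Palo over Matrigel-only. With no limit these were 6 and 8, and in Palo over Matrigel-only there were 4 of tendon, 3 of the joint and 2 of GDF signalling. These limits add genes with few UMIs. No paired analysis was possible because each condition had 1 library. *Mkx*, and *Gdf6* outside Matrigel-only, rest on at most 39 UMIs per library, so that counting error limits their ratios.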

Other observations

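*Grem1*, an antagonist of BMPs, differed in Matrigel-only by the lineage gene seen in the cell. There it was at 111 CPM in the *Scx* cells against 25.1 CPM in the other stromal cells. For the *Tnmd* cells it was at 124 against 26.5 CPM and for the *Gdf6* cells at 3.47 against 29.5 CPM. The last value rests on 4 UMIs, a ratio of 0.117 (0.0319 to 0.302). *Grem1* reached 10 UMIs in the *Tnmd* cells only by the count and in the *Gdf6* cells only by the expectation, so that the limit fixed both directions. In Vehicle it was at 19.7 against 21.1 CPM for the *Scx* cells and lower, at 5.78 against 21.2 CPM, for the *Tnmd* cells. That lower value rests on under 10 UMIs, and the limit fixed its direction too. In Palo *Grem1* was at 176 against 60.5 and 124 against 63.0 CPM in the same order. *Col11a1* was 10.4-fold higher (8.26 to 13.1) in the *Scx* cells and 12.2-fold higher (9.21 to 16.0) in the *Tnmd* cells of the Matrigel-only library, whose stroma had 1 UMI of *Col2a1*. In the *Tnmd* cells *Col11a1* reached 10 UMIs only by the count, so that the limit fixed that direction. *Eln*, elastin, stood at 11541 CPM with *Gdf6* against 3396 CPM without it. *Matn1* was at 12.7 CPM in the *Tnmd* cells of Vehicle, on 11 of 21 UMIs in that stroma, against 0.440 CPM in the others. It too reached 10 UMIs only by the count, which fixed its direction. In Vehicle 1 cell had both *Tnmd* and *Mkx*, so the *Matn1* values of these cells may share UMIs.

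Barcodes above 6000 genes, left out of all values above, were 16, 104 and 21 in the Matrigel-only, Vehicle and Palo libraries. They held 18 UMIs of *Scx* in Matrigel-only, 14 of them in 1 barcode, 107 in Vehicle and 1 in Palo. Vehicle cells that were neither stromal nor macrophage-marker cells, 1048 in number, had *Scx* at 4.33 CPM (2.56 to 6.84) on 18 UMIs.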
